A study of Mus musculus with 7 samples.

Results

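The 9 genes described here belong to the interleukin-6 (IL-6) family and were measured on 7 arrays of mouse brain: the cytokine genes Il6, Il11, Lif, Osm and Cntf, the receptor genes Il6ra, Il6st and Lifr, and the feedback inhibitor gene Socs3. They were chosen by gene name, and their 12 probes are 12 of 39429 probes on the array; all 9 genes were among the 23323 features that passed the filter on dim probes. Cytokines of this family share the signalling receptor chain gp130, the product of Il6st. A cytokine first meets its own partner chain, such as the IL-6 receptor encoded by Il6ra or the LIF receptor encoded by Lifr, and the joined receptor then works through JAK kinases and the transcription factor STAT3. STAT3 switches on Socs3, whose product binds gp130 and stops the signal. In injured brain the family is known for its part in turning astrocytes reactive, in the acute phase response and in survival of neurons.

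The groups were 3 arrays labelled Pla2g2e -/- (knockout, KO) on day 3 after occlusion, 3 labelled wild type (WT) on day 3 and 1 labelled WT sham, which stands for surgery without occlusion. The day 3 mice had the middle cerebral artery blocked for 60 min and then released, and the labels give male sex and C57BL/6N for every sample. Pla2g2e encodes a secreted phospholipase A2, and the comparison of KO with WT asks whether its loss alters expression after a stroke. The labels give neither the deleted exons, nor ages, nor the part of the brain taken. Nothing in them ties the replicates to separate mice either, so the p-values here speak only of the spread among these samples, and that spread may be technical.

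Leaving controls aside, an array had 43020 spots, with 31177 to 34029 of them well above background and 0 saturated. A first slide held the KO arrays and another the WT and sham arrays, and so genotype and slide cannot be told apart. Each value below is a log2 signal with the array's own 75th percentile subtracted, and the small number of arrays limits their precision. The brighter Pla2g2e probe, well above background on all 7 arrays, read -4.44, -5.83 and -4.97 on the KO arrays. It read -6.89, -3.68 and -3.36 on the WT day 3 arrays and -4.69 on sham, so it did not separate the labels. Without WT replicate 1 the KO arrays were all lower than WT on day 3, as in 5.33% of all features, by a log2 difference of -1.55 ± 0.44 (SE). The 95% interval of this difference was -2.70 to -0.41 (limma, unadjusted p = 0.0179), and it did not pass (adjusted p = 1.00). In this fit 381 of 23323 features had an unadjusted p under 0.05. The dimmer probe, well above background on 3 of the 7 arrays, read -7.94, -8.44 and -7.84 on the KO arrays. It read higher on WT replicates 2 and 3 (-6.72 and -6.50) and on sham (-6.83), but was lowest on WT replicate 1. The array labelled WT day 3 replicate 1 stood apart: its log2 signals correlated across genes with those of other arrays at 0.858 to 0.916, against 0.968 to 0.991 among the 15 other pairs. All 6 reactive astrocyte markers (Gfap, Vim, Serpina3n, Lcn2, Osmr, Cd44) were lowest on it, with a summed linear signal of 3.82 there, against 78.5 to 99.7 on the KO arrays, 86.5 and 79.0 on WT replicates 2 and 3 and 73.2 on sham. The sham array thus read these injury markers close to the occluded brains, and WT day 3 replicate 1 read them far below, each against its label. Arrays are named by their labels throughout, and results that rest on WT day 3 replicate 1 are given with and without it.

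Il6 and Il11 were among the members that varied most. Il6 encodes the founding cytokine of the family, made by glia, endothelium and leukocytes after injury, and its probe lies at chr5:30346367-30346426 of mm9. Il6 read 0.27, -1.27 and 0.65 on the KO arrays, against -6.53, -0.55 and 0.59 on the WT day 3 arrays and -1.30 on sham. Apart from WT replicate 1 the 2 genotypes overlapped, and the sham array and KO replicate 2 lay almost level. Il11 encodes interleukin-11, which signals through its own receptor and gp130 and is known from platelet formation and fibrosis; its probe lies at chr7:4724847-4724906. Il11 read 3.53, 0.91 and 3.06 on the KO arrays, against -4.18, 2.27 and 3.00 on the WT day 3 arrays and 1.00 on sham. The order was again WT replicate 1 far below all others and KO replicate 2 beside sham, and the KO arrays alone spanned 6.12-fold in Il11 and 3.80-fold in Il6. WT day 3 replicate 1 lay 37.4-fold below the lowest of the other 6 arrays in Il6 and 34.1-fold below in Il11.

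Socs3, the feedback inhibitor, had the widest gap of the 9 members. Its probe, at chr11:117827480-117827539 of mm9, read 4.21, 3.75 and 4.43 on the KO arrays, against -2.04, 4.03 and 4.27 on the WT day 3 arrays and 3.52 on sham. The other 6 arrays thus lay within 0.91 of each other and WT day 3 replicate 1 lay 47.3-fold below the lowest of them. Only 0.433% of all features had a wider gap on that array, against 0.540% for Il6 and 0.609% for Il11.

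The promoters of Il6, Il11 and Socs3, the 3 members with the widest gap on that array, are shown because all 3 genes were far lower there. Each is the 250 bases before the start of the gene, on its own strand, from RefSeq on GRCm38.p6, at chr5:30012864-30013113 (plus strand), chr7:4778142-4778391 (minus) and chr11:117969367-117969616 (minus). Capitals mark matches to the 4 motifs searched on both strands, TGANTCA (AP-1), TTNNGCAA (C/EBP), TTCNNNGAA (STAT) and the NF-kB motif, none of which overlapped here.
Il6: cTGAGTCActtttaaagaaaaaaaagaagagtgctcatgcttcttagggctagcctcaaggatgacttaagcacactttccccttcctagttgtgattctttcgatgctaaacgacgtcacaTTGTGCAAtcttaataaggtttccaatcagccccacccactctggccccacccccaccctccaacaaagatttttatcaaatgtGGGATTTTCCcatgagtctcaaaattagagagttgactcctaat
Il11: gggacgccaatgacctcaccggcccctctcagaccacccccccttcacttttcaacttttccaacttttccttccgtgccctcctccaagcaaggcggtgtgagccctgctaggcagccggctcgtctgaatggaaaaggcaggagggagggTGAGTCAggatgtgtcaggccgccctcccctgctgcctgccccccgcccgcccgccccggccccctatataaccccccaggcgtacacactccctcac
Socs3: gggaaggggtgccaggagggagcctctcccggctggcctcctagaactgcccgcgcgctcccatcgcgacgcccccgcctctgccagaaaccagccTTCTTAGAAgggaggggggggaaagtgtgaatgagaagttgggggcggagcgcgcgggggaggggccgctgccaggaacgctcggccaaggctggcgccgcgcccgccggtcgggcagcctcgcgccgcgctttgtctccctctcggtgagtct
The Il6 window held an AP-1 match 249 to 243 bases before the start, a C/EBP match at 128 to 121 and an NF-kB match at 44 to 35. The Il11 window held 1 AP-1 match at 98 to 92, and that of Socs3 held 1 STAT match at 154 to 146. Of 32851 promoter windows of this length, 6.75% held the AP-1 motif, 9.56% the C/EBP motif, 7.02% the STAT motif and 0.356% the NF-kB motif. Of the other members, Lif and Cntf had 1 AP-1 match each, while Il6ra, Il6st, Lifr and the other listed start of Il11 had no match to any of the 4. All members but Osm matched the table. A match is a description of the letters and was not tested as a site.

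Lif, Osm and Cntf are the remaining cytokine genes, and all 3 were also lowest on WT day 3 replicate 1. Lif encodes leukemia inhibitory factor, which acts on astrocytes, oligodendrocytes and neurons through Lifr and gp130; its probe lies at chr11:4172032-4172091 of mm9. Lif read -5.09, -6.31 and -5.56 on the KO arrays, against -7.23, -5.85 and -6.13 on the WT day 3 arrays and -6.98 on sham. It was the dimmest member, with 3.59% to 19.4% of features dimmer on the same array, and yet was well above background on all 7. The gap below the next array, sham, was only 1.19-fold. Osm encodes oncostatin M, a cytokine of neutrophils and macrophages, with a probe at chr11:4140146-4140205. Osm read -4.24, -5.03 and -3.61 on the KO arrays, against -6.58, -4.57 and -3.85 on the WT day 3 arrays and -4.64 on sham. WT replicate 1 was 2.93-fold below the lowest other array and the rest overlapped. Cntf encodes ciliary neurotrophic factor, which astrocytes and Schwann cells make. Its brighter probe, at chr19:12838236-12838295, read -0.10, -0.58 and -0.63 on the KO arrays, against -2.19, -0.26 and -0.31 on the WT day 3 arrays and -0.32 on sham. The dimmer probe, at chr19:12838019-12838078, read -1.69, -1.88 and -2.20 on the KO arrays, against -3.13, -1.88 and -1.79 on the WT day 3 arrays and -2.06 on sham. Both probes put WT replicate 1 lowest, by 2.95-fold and 1.90-fold, and both also list a transcript of Gm44505, so the 2 genes cannot be told apart by them.

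**Figure D1:**
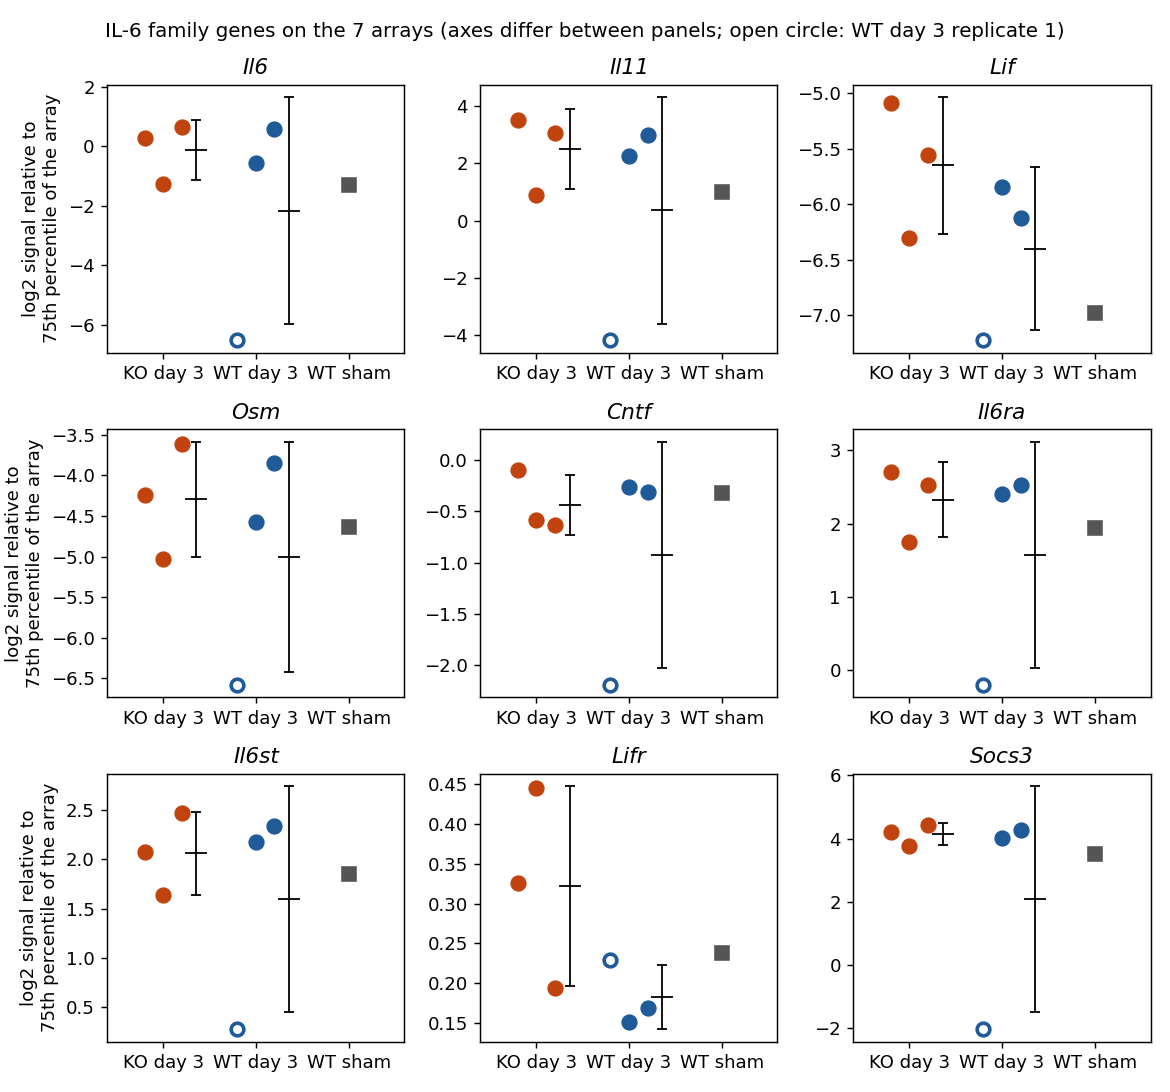
Log2 signal of the 9 members (vertical axis, relative to the 75th percentile of the array, scales differ) on the KO day 3, WT day 3 and WT sham arrays; circles and squares are single arrays, the open circle is WT day 3 replicate 1, and bars show mean and SD of 3 arrays. The open circle is the lowest point in every panel but that of Lifr, and the other points of the genotypes overlap in every panel but that of Lifr.

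Il6ra and Il6st, receptor genes, had a similar but smaller gap. Il6ra encodes the IL-6 binding chain, and its probe at chr3:89674054-89674113 of mm9 read 2.71, 1.75 and 2.53 on the KO arrays, against -0.20, 2.40 and 2.53 on the WT day 3 arrays and 1.94 on sham. Il6st encodes gp130, and its probe at chr13:113296586-113296645 read 2.07, 1.64 and 2.47 on the KO arrays, against 0.28, 2.18 and 2.33 on the WT day 3 arrays and 1.85 on sham. WT day 3 replicate 1 lay 3.86-fold below the lowest other array in Il6ra and 2.57-fold below in Il6st. In both genes the next lowest arrays were KO replicate 2 and sham.

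Lifr encodes the LIF receptor chain, which LIF and ciliary neurotrophic factor use, and in the mouse it is also known to give a soluble receptor. Its brightest probe, for transcript variant 1 at chr15:7147319-7147378 of mm9, read 0.33, 0.45 and 0.19 on the KO arrays, against 0.23, 0.15 and 0.17 on the WT day 3 arrays and 0.24 on sham. All 7 arrays lay within 0.29 of each other, which made Lifr the steadiest member and the only one not lowest on WT replicate 1. The probe named for transcript variant 2, at chr15:7135072-7135131, read -1.83, -2.44 and -1.84 on the KO arrays, against -4.74, -2.36 and -1.97 on the WT day 3 arrays and -2.80 on sham. It put WT replicate 1 3.86-fold below the lowest other array, the same size as for Il6ra. The third probe, also for variant 1, at chr15:7141150-7141209, read -3.68, -3.79 and -3.80 on the KO arrays, against -4.52, -4.07 and -3.81 on the WT day 3 arrays and -4.14 on sham. The gap there was 1.30-fold. The variant 2 probe minus the brightest probe was -2.15, -2.89 and -2.03 on the KO arrays, against -4.97, -2.51 and -2.14 on the WT day 3 arrays and -3.03 on sham. The probes thus changed unequally between arrays.

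**Figure D2:**
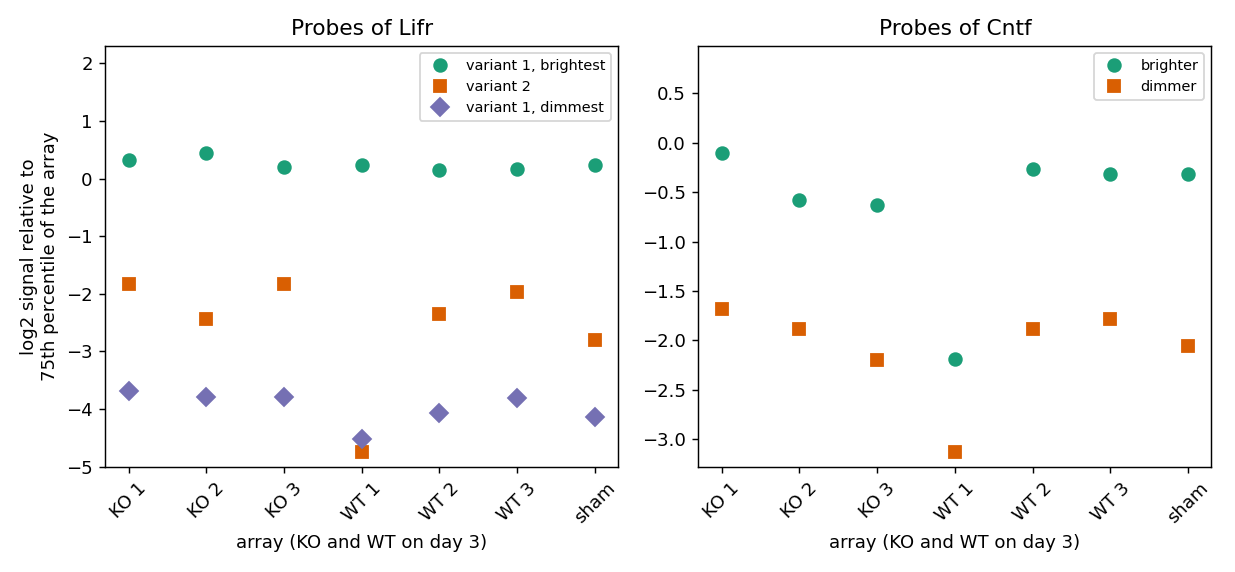
Log2 signal (vertical axis, relative to the 75th percentile of the array) of the 3 Lifr probes and the 2 Cntf probes on each of the 7 arrays (horizontal axis). The brightest Lifr probe is level within 0.29, while the variant 2 probe reads -4.74 on WT replicate 1, and both Cntf probes are lowest on WT replicate 1.

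By count, WT day 3 replicate 1 was the lowest of the 7 arrays in 8 of 9 members, against 34.3% of all features. It was lowest by at least 2-fold in 7 of 9, against 13.1% of all features, and by at least 16-fold in 3 of 9, against 1.39%. Other cell type markers also stood apart on this array, though not in every list and not all in 1 direction. Its summed monocyte and macrophage markers were 0.686, against 97.8 to 139.7 on the other 6 arrays, with 6 of 6 lowest on it. Endothelial markers summed to 12.1, against 30.0 to 70.4, and pericyte and fibroblast markers to 7.06, against 41.1 to 94.6, again with 6 of 6 lowest in each list. Neuron markers summed to 140.1, against 12.4 to 39.6, with 6 of 6 highest. Astrocyte markers summed to 132.5, against 60.7 to 85.9, with 3 of 6 highest. Aldoc, at 6.70 on this array, weighed most in that sum. Aldh1l1 (2.90), Aqp4 (1.01) and Gja1 (-0.06) lay within the range of the other 6 arrays. Microglia markers summed to 35.7, against 101.4 to 120.2, with 5 of 6 lowest and 1 highest. Neutrophil markers summed to 0.461, against 4.37 to 30.6, with 3 of 5 measured lowest and 1 highest. Oligodendrocyte markers, at 111.8, lay within the 60.8 to 149.5 of the other arrays. All measured markers of these lists were well above background on all 7 arrays, except in the neutrophil list, where 4 of 5 were. Their part in the levels of the IL-6 family was not tested. In whole tissue, fewer cells of a type and less RNA per cell cannot be told apart.

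With all arrays as labelled, the mean of each of the 9 members was higher in KO than in WT on day 3, and none passed the test. Il6 averaged -0.12 ± 1.02 in KO and -2.16 ± 3.82 in WT (SD, n = 3 each), a log2 difference of 2.05 ± 1.92 (SE; limma, adjusted p = 0.862). Il11 averaged 2.50 ± 1.40 in KO and 0.36 ± 3.95 in WT, a difference of 2.14 ± 2.04. Socs3 averaged 4.13 ± 0.35 in KO and 2.08 ± 3.58 in WT, a difference of 2.05 ± 1.75. In these 3 genes WT replicate 1 was the low value behind the WT spread. The differences were 0.75 ± 0.80 for Il6ra, 0.75 ± 0.49 for Lif, 0.71 ± 0.78 for Osm, 0.48 ± 0.57 for Cntf, 0.46 ± 0.61 for Il6st and 0.14 ± 0.17 for Lifr. All 9 had the same limma adjusted p of 0.862. Of the 9 members, 0 passed at an adjusted p under 0.05, against 0% of all 23323 features, and 0 had an unadjusted p under 0.05, against 0.853% of all features (limma). A difference above 0 was found in 46.8% of all features and one of at least 1, as in 3 of the 9 members, in 4.64%. No member separated all KO from all WT arrays, against 1.88% of features with KO higher and 2.65% with KO lower. With 3 arrays against 3, an exact permutation test cannot go below p = 0.10, and none was used. The dim genes Lif and Osm differed by 0.27 each when the background was corrected with normexp instead.

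Without WT day 3 replicate 1 the differences were near 0. Socs3 differed by -0.02 (95% interval -0.66 to 0.63), Il6st by -0.20 (-0.92 to 0.52) and Cntf by -0.15 (-0.69 to 0.39). Il6 differed by -0.14 (-1.96 to 1.69) and Il11 by -0.13 (-2.37 to 2.11), intervals that still hold a log2 change of 1 in either direction. Il6ra differed by -0.14 (-0.99 to 0.71) and Osm by -0.09 (-1.35 to 1.18). These 7 members turned from higher to lower in KO, while Lif stayed higher at 0.33 (-0.68 to 1.35) and Lifr at 0.16 (-0.20 to 0.52). In 8 of 9 members the difference was under 0.2 in size, against 72.8% of all features. The brightest Lifr probe was the only member whose KO arrays all lay on 1 side of WT replicates 2 and 3, above them, against 6.32% of features with KO higher; 0 members had all KO arrays below, against 5.33%. The limma adjusted p was 1.00 for each of the 9 in this fit, and the smallest for any member over all comparisons and alternatives run was 0.665.

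**Figure D3:**
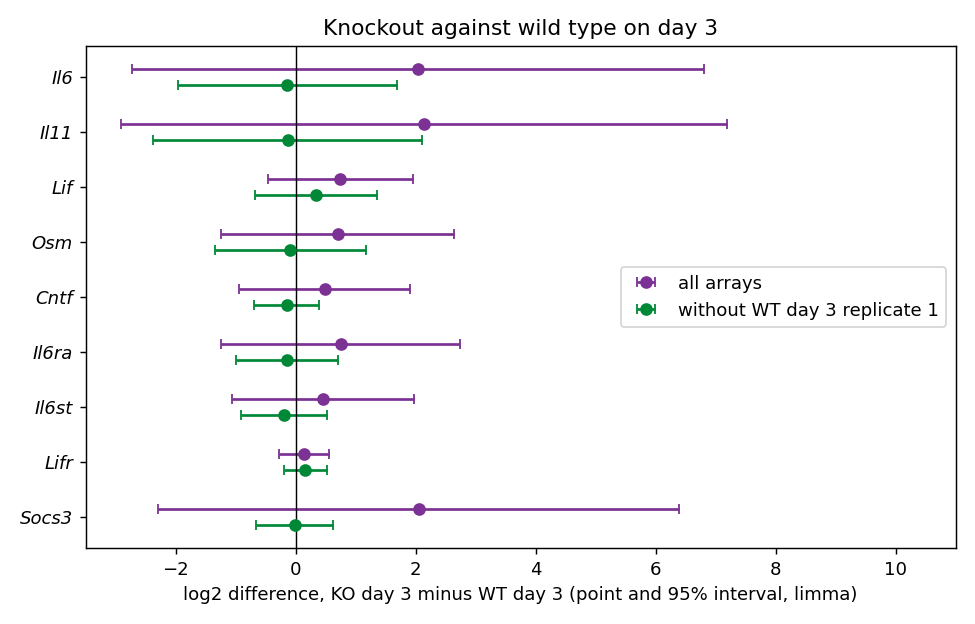
Log2 difference of KO day 3 minus WT day 3 (horizontal axis) for each member, with 95% intervals from limma, with all arrays and without WT day 3 replicate 1. With all arrays the differences of Il6, Il11 and Socs3 lie at 2.05, 2.14 and 2.05 with intervals across 0; without that array they lie at -0.14, -0.13 and -0.02.

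The day 3 arrays were also set against sham. The single sham array is shared by both comparisons and is assumed to vary like the others. It is WT and lies on the slide of the WT arrays, so KO against sham differs in occlusion, genotype and slide together. These cannot be told apart there, and only WT against sham keeps genotype and slide the same. The difference of KO from sham was 1.50 ± 2.88 for Il11, 1.33 ± 0.69 for Lif, 1.18 ± 2.72 for Il6 and 0.61 ± 2.47 for Socs3 (log2, SE). It was 0.38 ± 1.13 for Il6ra, 0.34 ± 1.11 for Osm, 0.21 ± 0.86 for Il6st, 0.08 ± 0.24 for Lifr and -0.12 ± 0.81 for Cntf. All 3 KO arrays lay above sham in Il6, Lif and Socs3, that is 3 of 9 members against 28.5% of all features, and below it in 0, against 25.8%. None of the 9 passed (limma, adjusted p = 1.00), where 3 of all features did (0.0129%), Zfp652, Cnot9 and BC002059, named outside the rule after their values were seen. Without WT day 3 replicate 1, which enters through the spread, Lif differed by the same 1.33 with an interval of 0.04 to 2.61 (limma, unadjusted p = 0.0455, adjusted p = 0.712), and 4.92% of all features then had an unadjusted p under 0.05.

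WT day 3 against sham, within 1 slide, changed direction with WT replicate 1. The difference of WT from sham was -1.44 ± 2.47 for Socs3, -0.86 ± 2.72 for Il6 and -0.64 ± 2.88 for Il11 with all arrays, and 0.63 ± 0.33, 1.32 ± 0.94 and 1.63 ± 1.15 in the same genes without it. Cntf, Osm, Il6ra and Il6st turned in the same way, from between -0.60 and -0.26 to between 0.03 and 0.52. Lif was 0.58 ± 0.69 with all arrays and 0.99 ± 0.52 without, and Lifr -0.05 ± 0.24 and -0.08 ± 0.18. None of the 9 passed in either fit (limma, adjusted p = 1.00 with all arrays), against 3 of all features (0.0129%), the same 3 named above. All 3 WT arrays lay above sham in 0 members, against 16.7% of features, and below it in 1, Lifr, against 11.1%.

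Among the 6 arrays other than WT day 3 replicate 1, most members shared the same lowest 2. These were sham and KO replicate 2, in Il6, Il11, Lif, Osm, Il6ra, Il6st and Socs3, that is in 7 of 9 members, against 27.5% of all features. The exceptions were Cntf and Lifr, and in 0 members were these arrays the highest 2, against 22.2%. The lowest of the other 4 arrays lay 2.41-fold above the higher of these 2 in Il11, 1.65-fold in Il6 and 1.05-fold in Osm. The range over the 6 arrays was 2.61 for Il11 and 1.95 for Il6, against a median of 0.65 over all features, and 0.53 for Cntf and 0.29 for Lifr. Endothelial markers summed to 36.6 on KO replicate 2 and 30.0 on sham, against 59.1 to 70.4 on the other 4 arrays. Pericyte and fibroblast markers summed to 44.8 and 41.1 on the same 2 arrays, against 64.3 to 94.6, and neuron markers to 38.7 and 39.6, against 12.4 to 28.5. Neutrophil markers summed to 13.1 on KO replicate 2 and 4.37 on sham, against 16.5 to 30.6, over 5 measured of 6, with 4 well above background on all arrays. Monocyte and macrophage markers summed to 97.8 and 113.7 on KO replicate 2 and sham, against 133.7 to 139.7, and reactive astrocyte markers to 78.5 and 73.2, against 79.0 to 99.7. Bright genes weigh most in such sums, and the single markers of these lists were split. Lgals3, Cd14, Vim, Lcn2 and Osmr were lowest on the same 2 arrays, while Serpina3n was highest on them (3.49 and 3.25). Ccr2, Lyz2, Ms4a7, Spp1, Gfap and Cd44 did not have them as the lowest 2 or the highest 2. Astrocyte markers were highest on the same 2 arrays, at 85.9 and 77.6, against 60.7 to 74.5, and so were oligodendrocyte markers, at 149.5 and 139.5, against 60.8 to 137.6. Microglia markers did not set these 2 arrays apart, with 118.0 and 114.7, against 101.4 to 120.2. The part of these cell types in the levels of the members was not tested.

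**Figure D4:**
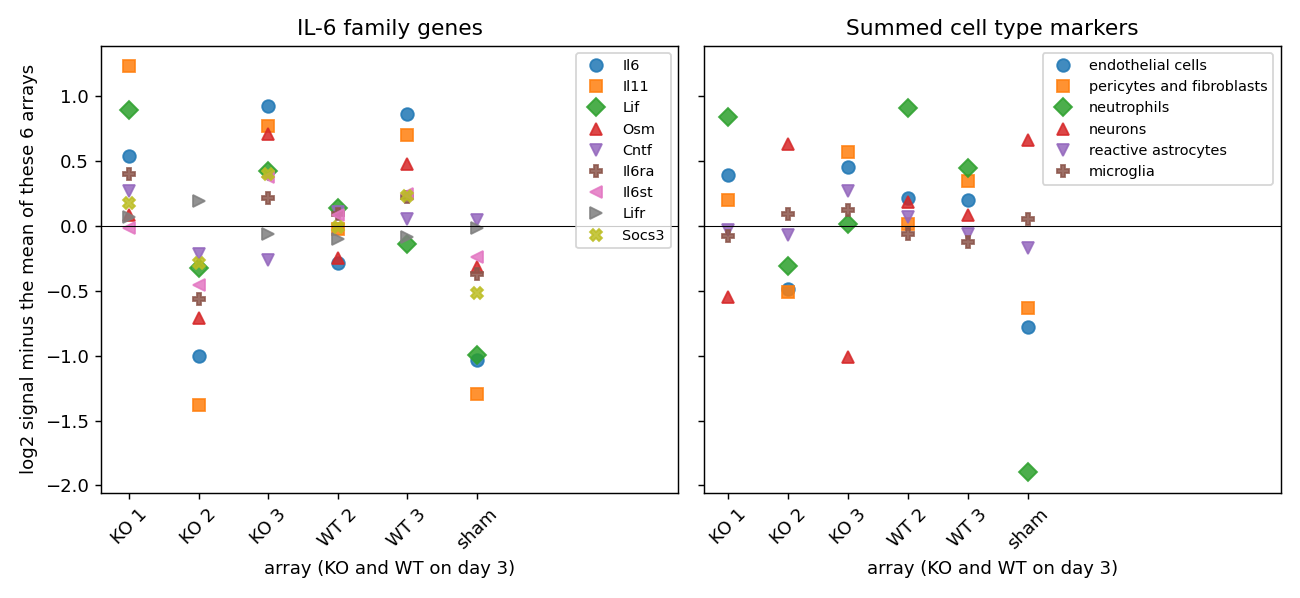
Log2 signal minus the mean of the 6 arrays (vertical axis) for the 9 members and for 6 summed marker lists, on the arrays other than WT day 3 replicate 1. Il11 and Il6 lie lowest on KO 2 and sham, where the endothelial sums (36.6 and 30.0) are also lowest and the neuron sums (38.7 and 39.6) highest.

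Other genes of the pathway, 42 in 6 lists with 41 measured, also had 0 calls between KO and WT (limma, against 0% of all features). Of the 41, 31 were higher in KO with all arrays, against 46.8% of all features. The median difference was 0.29, against -0.03 over all features. Without WT day 3 replicate 1, 15 were higher, against 50.3% of all features, with a median of -0.10 against 0.00. Against sham, 28 of 41 were higher in KO (median 0.20) and 12 of 41 in WT (median -0.16). The shares over all features were 50.4% and 54.1%. Again 0 passed the test (against 0.0129% of all features in each comparison). Genes known as STAT3 targets had the highest median, 1.05 with 12 of 12 higher. All 12 were lowest on WT replicate 1, against 34.3% of all features. Bcl3, a regulator of NF-kB, differed by 1.84 ± 1.65 (SE), the adhesion molecule gene Icam1 by 1.74 ± 1.26 and the growth regulator gene Myc by 1.12 ± 0.84, none of which passed. Without that array the differences were -0.11 for Bcl3, 0.35 for Icam1 and 0.20 for Myc, and the median was -0.12, with 4 of 12 higher. Gfap, the astrocyte filament gene, which is also in the reactive astrocyte list, read 1.81, 3.99 and 4.49 on the KO arrays, against 0.43, 4.22 and 3.68 on the WT day 3 arrays and 4.19 on sham.

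The other receptors had a median difference of 0.25, with 3 of 5 higher in KO, and of -0.068 without WT replicate 1, with 2 of 5 higher. Osmr, the oncostatin M receptor chain, read 2.53, 2.09 and 3.24 on the KO arrays, against -2.06, 2.91 and 2.91 on the WT day 3 arrays and 2.13 on sham. Like Il6st it was lowest on WT replicate 1, and sham and KO replicate 2 were next. Il11ra1, the receptor chain for interleukin-11, read 3.33, 3.21 and 3.49 on the KO arrays, against 2.75, 3.31 and 3.21 on the WT day 3 arrays and 2.92 on sham, a narrower range than that of its ligand gene Il11. Cntfr, the chain that binds ciliary neurotrophic factor, differed by -0.30 ± 0.30, or -0.068 without WT replicate 1, on which it was highest. Against sham, the smallest unadjusted p in WT among these receptors were those of Il31ra (-1.11) and Il27ra (-0.52), neither past the test. Il27ra read -6.71 on WT replicate 1, against -4.81 and -5.12 on WT replicates 2 and 3 and -5.02 on sham. Il31ra was lower than sham on all 3 WT arrays, against 11.1% of all features. It was also lower than sham on all 3 KO arrays, against 25.8%. It was dim, at -5.38 on sham, and well above background on 6 of the 7 arrays.

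The other cytokines had a median difference of 0.02, with 3 of 6 measured higher in KO; Il31 did not pass the filter on dim probes. Clcf1, the cytokine that shares the ciliary neurotrophic factor receptor, read -1.89, -2.61 and -0.86 on the KO arrays, against -5.37, -1.83 and -1.97 on the WT day 3 arrays and -2.26 on sham. Clcf1 thus joined the members that were lowest on WT replicate 1, while Ebi3, a subunit gene of interleukin-27, and Ctf2, a cardiotrophin gene, differed by 0.25 ± 0.19 and -0.21 ± 0.30. Without that array the differences were 0.11 for Clcf1, 0.13 for Ebi3 and -0.023 for Ctf2. Ebi3 was lower in WT than in sham by a log2 difference of -0.56 that did not pass.

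JAK and STAT genes with Ptpn11 had a median of 0.078, with 6 of 8 higher in KO, and of -0.016 without WT replicate 1, with 3 of 8 higher. Stat3 itself read 3.58, 3.59 and 3.75 on the KO arrays, against 1.53, 3.58 and 3.73 on the WT day 3 arrays and 3.34 on sham, level on the 6 arrays within 0.41. Stat5a differed by 0.72 ± 0.79 with all arrays and by -0.18 without WT replicate 1, and the kinase gene Tyk2 by 0.29 ± 0.25 and 0.084, while Jak1 and Ptpn11 differed from sham in WT by 0.27 and 0.14. The other inhibitors had a median of 0.30 with 5 of 8 higher, and of -0.083 without that array, with 3 of 8 higher. Cish, a STAT5-induced inhibitor gene, read -0.72, -0.93 and -0.38 on the KO arrays, against 0.14, -0.24 and -0.40 on the WT day 3 arrays and -1.03 on sham. Cish was highest on WT replicate 1, and its difference was -0.51 ± 0.25 with all arrays (limma, adjusted p = 0.862) and -0.36 without that array. Pias3, an inhibitor of STAT3, differed by 0.40 ± 0.20 with all arrays and 0.28 without WT replicate 1, and Pias1 by -0.31 ± 0.19 and -0.20. The phosphatase gene Ptpn6 read 0.91, 0.87 and 0.87 on the KO arrays, against -2.73, 0.97 and 0.78 on the WT day 3 arrays and 0.87 on sham, so that WT replicate 1 alone stood apart. Adam10 and Adam17, the proteases that release soluble IL-6 receptor, differed by 0.28 each between KO and WT with all arrays, and by -0.15 and -0.10 without WT replicate 1.

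**Figure D5:**
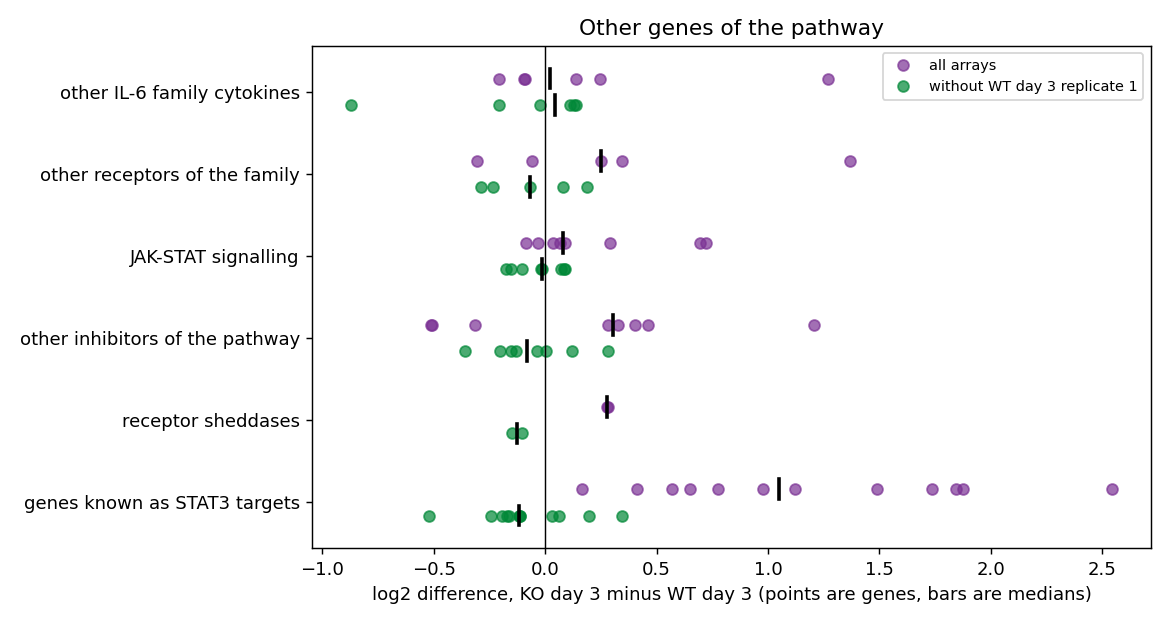
Log2 difference of KO day 3 minus WT day 3 (horizontal axis) for the 41 other genes of the pathway by list, with all arrays and without WT day 3 replicate 1; points are genes and bars medians. The median of the STAT3 targets is 1.05 with all arrays and -0.12 without that array.

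The genes with the nearest profiles were found by the root mean square difference of log2 signals centred over the 7 arrays, a measure to which WT day 3 replicate 1 contributes most for genes with a wide gap. Among the genes near Il6 was the water channel gene Aqp1, at 0.33. Il11 was nearest to Ms4a8a at 0.29 and then to Il6 itself at 0.35, and Socs3 to the tubulin gene Tuba1c at 0.12 and the Fc receptor gene Fcgr4 at 0.17. To Il6, 3 features were nearer than Il11 was. For Socs3, whose nearest member was Il6 at 0.49, 107 named features were nearer. The nearest to Il6st were Tmem104 at 0.062 and Zfp36l1, which encodes an mRNA decay factor, at 0.081, and to Il6ra Baz1a, a chromatin remodelling gene, at 0.055 and Man2a1, a glycan processing gene, at 0.067. Osm was nearest to Rdh10 (0.12) and Zic5 (0.16), Cntf to Ccdc88b and Fen1 (0.11 each), Lif to Cyp2r1 (0.16) and Slc22a12 (0.17), and Lifr to Ercc6l2 (0.036) and Adi1 (0.056).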

How the data were processed

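RNA from 7 brain samples was hybridised in 1 colour to oligonucleotide arrays with 60-base probes. Per the file headers, the deposited intensity of each spot came from Agilent Feature Extraction 11.5.1.1, background-subtracted and detrended within the array. The values of the deposited series table are a linear ratio, equal to intensity over the array's 75th percentile to within 0.0428%, and served as an alternative only; its column medians were 0.0942 to 0.107. Probe positions are those of the files, on mm9.

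Intensities were taken to log2 minus each array's 75th percentile. Outlier spots were left out, spots of a probe averaged, probes kept if 3 or more of the 7 arrays had them well above background, and each gene represented by its brightest probe. Accessions matched RefSeq (GRCm38.p6) for 28330 of 39429 probes, and other probes kept the name in the file. Tests used limma 3.58.1 in R 4.3.3, in a model of 3 groups with 4 residual and 1.68 prior degrees of freedom, two-sided, with Benjamini-Hochberg adjustment over 23323 features and a threshold of 0.05. Marker sums add linear signals relative to the 75th percentile. Of these steps, only the limma fit of KO against WT was tested on simulated data. Its noise was drawn independently for each array, so no simulated array stood apart as WT day 3 replicate 1 did. Plots used Python 3.11.15 and matplotlib 3.10.9.

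Same-numbered KO and WT arrays were compared as pairs: their deviations from the group means correlated at -0.38, -0.56 and 0.35 across genes. Deviations of 3 arrays from their own mean depend on each other, and WT day 3 replicate 1 stood far apart in its group. These correlations therefore cannot decide whether the numbers pair samples. The members, gene lists and the alternatives (background correction, normalization, filter, value table, single probes, samples left out, replicate block) were chosen with earlier results of these data known. Named beside the 9 members were up to 3 genes per list with the smallest p in KO against WT and in WT against sham, and for each member the 2 nearest profiles. A single one of these genes is not reported here.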

Additional observations from a re-analysis of the deposited data

How the results depend on the processing

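Of the 9 members, 0 passed in any comparison under any alternative run (smallest adjusted p = 0.665), and 0 genes passed between KO and WT under any of them, with or without the replicate block (0 with it; limma, with 65 to 430 genes at an unadjusted p under 0.05). Between KO and sham, and between WT and sham, 3 genes passed, but 0 with normexp, with quantile normalization or with only probes well above background on all arrays, and in WT against sham 0 on the slide that holds both groups. Leaving out 1 day 3 array gave 0 to 8 genes for KO and 0 to 6 for WT against sham, the highest without WT day 3 replicate 1 in each. Without that array and sham, KO minus WT was -0.15 for Cntf, -0.13 for Il11, -0.14 for Il6 and -0.14 for Il6ra. It was -0.20 for Il6st, -0.085 for Osm and -0.015 for Socs3, and all of these had the opposite direction to the full fit. Leaving out sham cannot alter KO minus WT, so these values repeat those without WT day 3 replicate 1 alone. Over the day 3 arrays left out in turn, KO minus WT ranged from -0.15 to 0.81 for Cntf, -0.13 to 3.45 for Il11, -0.14 to 3.42 for Il6, -0.14 to 1.23 for Il6ra, -0.20 to 0.83 for Il6st, -0.085 to 1.28 for Osm and -0.015 to 3.14 for Socs3. WT minus sham ranged from -0.93 to 0.032 for Cntf, -1.95 to 1.63 for Il11, -2.24 to 1.32 for Il6, -0.84 to 0.52 for Il6ra, -0.63 to 0.40 for Il6st, -0.94 to 0.43 for Osm and -2.53 to 0.63 for Socs3. The sign turned only without WT day 3 replicate 1. Other reversals were Osm in WT against sham with normexp (0.13), the dimmer Cntf probe in KO against sham (0.14) and the dimmest Lifr probe in WT against sham (0.0058). Normexp moved the median of all features to 0.11 in KO and 0.10 in WT against sham. The cause was not tested. Lif, the dimmest member, lay 1.86 to 3.29 above the lowest signal well above background on its array.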
